A study of Mus musculus with 6 samples.

Results

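The genes described here are 10 leukocyte integrins and adhesion molecules in mouse bone-marrow-derived macrophages (BMDMs). They comprise the integrin chains Itgb2, Itgam, Itgal, Itgax, Itga4 and Itga5, the inducible adhesion molecules Icam1, Vcam1 and Sele, and the hyaluronan receptor Cd44. The rule that chose them used gene symbols and no measured values, and each symbol matched 1 of the 54532 genes in the deposited expression table. The list itself was drawn up with earlier results of these data known. Counts of its genes beside all genes are therefore no independent comparison. All 10 reached 1 TPM (a read count divided by gene length and scaled to a fixed library total) in at least 2 of the 6 libraries and were therefore among the 12755 genes tested. Vcam1 and Sele did so only through the LPS-stimulated groups, so their difference from untreated cells is in part fixed by that filter.

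The macrophages came from wild-type C57BL/6 mice and were grown from bone marrow for 6 days in medium conditioned by L929 fibroblasts, a source of the macrophage growth factor M-CSF. RNA sequencing of poly-A RNA covered 3 groups of 2 libraries. Untreated cells received neither agent. The LPS group was stimulated with 100 ng/ml lipopolysaccharide (LPS), a bacterial cell-wall component, for 2 h. The Met + LPS group received 5 mM metformin, an antidiabetic drug that inhibits mitochondrial complex I, for 6 h and was then given the same LPS stimulus of 100 ng/ml for 2 h. Metformin without LPS was not analysed here, so its effect on the resting level of these genes is unknown. Cells were seeded in duplicate, and the sources used here do not say whether the 2 libraries of a group came from separate mice. The p-values below therefore measure only the spread between these libraries, which may be technical. The sources give no age or sex of the mice.

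Leukocytes leave the blood in steps. Selectins such as E-selectin, the product of Sele, slow the cell on the vessel wall, after which integrins on the leukocyte bind immunoglobulin-type ligands such as ICAM-1 and VCAM-1 and hold it in place. Integrins are pairs of an α and a β chain, and the shared β chain of the leukocyte integrins is encoded by Itgb2 and pairs with αM (Itgam), αL (Itgal) or αX (Itgax). The chains encoded by Itga4 and Itga5 share instead the β chain encoded by Itgb1 as a partner and bind VCAM-1 and fibronectin or fibronectin alone. Cd44 encodes the main receptor for hyaluronan, a sugar polymer of the extracellular matrix. In vessels, ICAM-1, VCAM-1 and E-selectin are known as the adhesion molecules of inflamed endothelium, and the first of these is also a well-known product of activated macrophages.

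RefSeq promoter windows of GRCm38.p6, which hold 250 bases before and 50 bases after a gene's start, were found for 7 of the 10 genes and were missing for Vcam1, Itgal and Itgb2. The 250 bases before the start are shown for 3 genes that LPS raised, because these windows hold the letters of an NF-kB motif and because the genes then parted ways under metformin: Icam1 (chr9:21015690-21015939, plus strand) and Sele (chr1:164047984-164048233, plus strand), whose levels were lower with metformin, and Itga5 (chr15:103366792-103367041, minus strand), whose level differed little. Each is written 5′ to 3′ in lower case, with matches to the NF-kB, AP-1 and CRE-like motifs in capitals.
Icam1: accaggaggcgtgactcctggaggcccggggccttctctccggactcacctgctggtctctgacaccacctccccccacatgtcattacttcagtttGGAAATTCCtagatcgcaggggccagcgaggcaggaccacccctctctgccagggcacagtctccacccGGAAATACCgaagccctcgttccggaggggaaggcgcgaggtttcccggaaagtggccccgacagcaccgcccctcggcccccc
Sele: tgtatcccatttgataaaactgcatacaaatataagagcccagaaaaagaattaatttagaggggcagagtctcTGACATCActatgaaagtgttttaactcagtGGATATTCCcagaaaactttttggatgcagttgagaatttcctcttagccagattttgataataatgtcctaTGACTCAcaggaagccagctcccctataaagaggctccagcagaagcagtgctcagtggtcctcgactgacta
Itga5: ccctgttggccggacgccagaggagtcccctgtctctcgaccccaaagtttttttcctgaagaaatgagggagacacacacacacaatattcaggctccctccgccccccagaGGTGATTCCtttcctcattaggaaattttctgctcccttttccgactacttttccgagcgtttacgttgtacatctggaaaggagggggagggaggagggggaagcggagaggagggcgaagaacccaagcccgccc

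The NF-kB motif was searched as GGNNNTTCC on both strands and occurred in 18.5% of all 32851 promoter windows, so a match in one window is common. In the Icam1 window it was found on both strands at positions -153 to -145 and on the minus strand at -84 to -76. In the Sele window it was found at -145 to -137, together with a CRE-like match (TGACNTCA, in 8.83% of windows) at -176 to -169 and an AP-1 match (TGANTCA, in 7.81% of windows) at -73 to -67. The match in the Itga5 window lay at -137 to -129. Of the other 4 windows, that of Itgax held an AP-1 match at -56 to -50, and those of Itgam, Itga4 and Cd44 held none of these motifs. The letters GAGGAAGT of the myeloid factor PU.1, present in 3.2% of windows, were in none of the 7. These matches describe the letters in the windows and were not tested against the expression values. Positions are counted back from the RefSeq start, which for Icam1, Itga5 and Itgax differs from the start in the gene coordinates given below.

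LPS raised 7 of the 10 genes within 2 h, most of all Icam1, Vcam1 and Sele, and metformin pretreatment lowered the LPS-stimulated levels of these same 3 genes. Icam1 stood at 41.9 ± 0.731 TPM (SD, n = 2) in untreated cells, 2782 ± 21.5 TPM after LPS and 1694 ± 41.1 TPM in Met + LPS cells. Cd44 and Itga5 kept nearly all of their LPS-stimulated level with metformin, Itga4 lost part of it, and Itgal and Itgax were higher with metformin than without. Here "rose" and "fell" are used of genes with an adjusted p under 0.01 in limma, a linear-model test fitted across all 12755 genes on log2(TPM + 1) with Benjamini-Hochberg adjustment. Where stated, the fold-change cut-offs of the study were applied in addition, which are 2 on the log2 scale against untreated cells and 0.7 between Met + LPS and LPS cells. Fold changes on this scale understate the change of genes near 0 TPM.

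**Figure D1:**
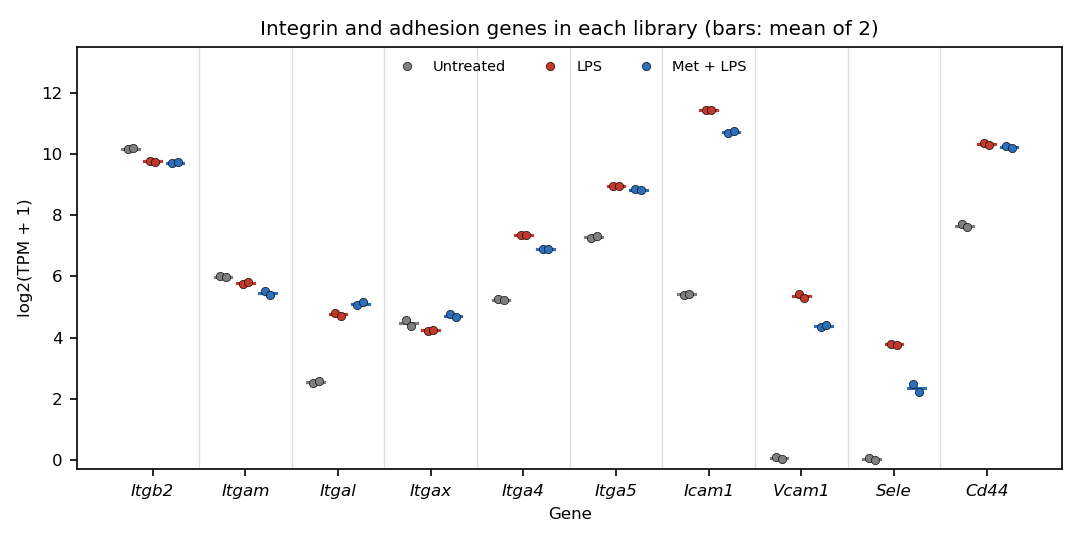
Level of each of the 10 genes in every library, as log2(TPM + 1) on the vertical axis, with untreated libraries in grey, LPS in red and Met + LPS in blue; short bars mark the mean of the 2 libraries. Libraries of a group lie close together, Vcam1 and Sele rise from near 0 and Icam1 from a middle level with LPS, all 3 are lower in Met + LPS than in LPS, and Itgb2 stays within a narrow band in all 6 libraries.

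The libraries were deep for these genes. Multiplying TPM by exon length returned whole reads (within 0.01 reads) for 96.0% to 96.2% of the values above 0 and for all 10 genes, and gave 25448763 to 30757665 reads per library. A library held from 1324 to 91815 reads of Icam1 and at least 18952 reads of Itgb2, whereas Sele never exceeded 285 reads. On the first and second components of a principal component analysis the libraries of each group lay together, whereas the third set LPS replicate 1 (-14.75) apart from LPS replicate 2 (14.39), with the other 4 libraries between -1.60 and 1.85. The macrophage markers Adgre1, Csf1r, Cd68, Mertk, Fcgr1, Cd14, Lyz2 and Aif1 were all expressed, led by Lyz2 at 21203 to 35844 TPM, which matches the labelled cell type. The median log2 fold change of all tested genes lay at -0.48 in LPS vs. untreated and at -0.03 in Met + LPS vs. LPS. It moved to -0.01 and -0.02 when libraries were scaled by the median ratio over genes, which removes most of the shift by construction. TPM are shares of a library, and the part of this in the shift of the median was not tested. Small LPS-related changes are therefore also given relative to this median.

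In LPS vs. untreated cells, 6 of the 10 genes passed both cut-offs, all of them higher, namely Icam1, Vcam1, Sele, Cd44, Itgal and Itga4. The calls of Vcam1 and Sele are in part fixed by the filter, which these genes passed only through the stimulated groups. Among all tested genes 6.08% passed both cut-offs and 3.72% did so as higher in LPS. By the adjusted p alone, 9 of the 10 genes passed, of which 7 rose and 2 fell, where 76.3% of all genes passed. Among all genes 16.2% rose and 60.1% fell by that rule. With median-ratio scaling 8 members rose and 0 fell, beside 30.6% and 27.6% of all genes, since Itgam turned upward and Itgb2 no longer passed. The median log2 fold change of the 10 genes was 2.17. In Met + LPS vs. LPS, 3 of the 10 genes (Icam1, Vcam1 and Sele) passed both cut-offs, all of them lower, beside 8.28% of all genes in either direction and 4.09% as lower. By the adjusted p alone 7 genes passed, with 2 higher and 5 lower, beside 32.6% of all genes (14.5% higher and 18% lower). The median log2 fold change of the 10 genes in this comparison was -0.21. For each of the 10 genes the libraries of the 2 groups compared did not overlap, in LPS vs. untreated (as for 91.6% of all genes), in Met + LPS vs. LPS (73.8%) and in Met + LPS vs. untreated (90.7%), so a lack of overlap says little here.

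**Figure D2:**
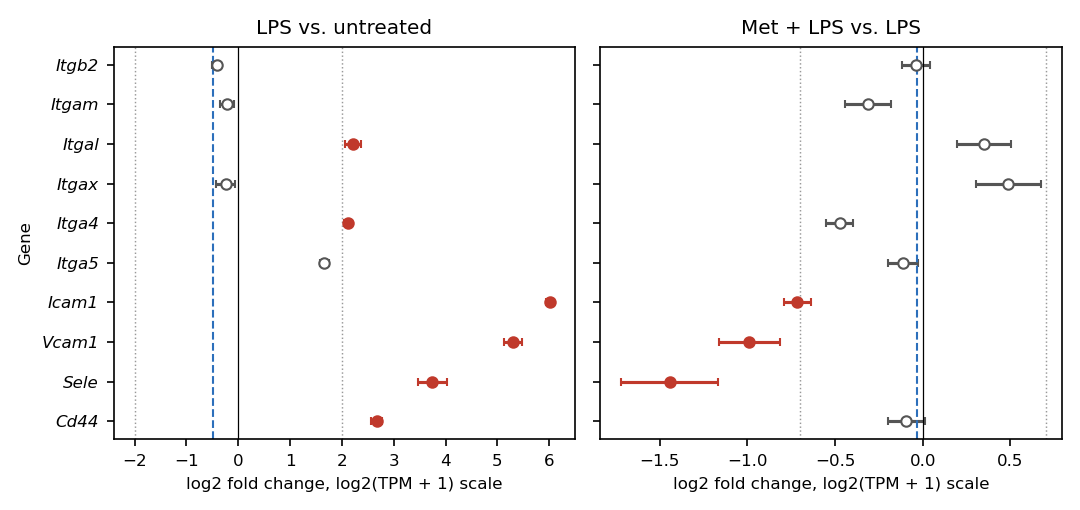
Log2 fold changes of the 10 genes on the log2(TPM + 1) scale with 95% confidence intervals, LPS vs. untreated on the left and Met + LPS vs. LPS on the right; filled red points passed both cut-offs (dotted lines mark the fold-change cut-off) and the dashed blue line is the median of all tested genes. On the left 6 genes lie beyond 2, and on the right Icam1, Vcam1 and Sele lie below -0.7 while Itgal and Itgax lie above 0.

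Icam1 encodes ICAM-1, the immunoglobulin-type ligand of the αL and αM integrins. Its level was 41.4 and 42.4 TPM in untreated cells, 2766 and 2797 TPM after LPS, and 1665 and 1723 TPM in Met + LPS cells. The 3 groups did not overlap, and after LPS it was the most abundant of the 10 genes. It rose 66.4-fold with LPS (log2 fold change 6.02 ± 0.03 (SE), limma adjusted p = 9.4e-10). With metformin its level was 60.9% of that in LPS cells (log2 fold change -0.72 ± 0.03, limma adjusted p = 2.0e-05), still 40.5-fold above untreated cells. The metformin difference lay close to the cut-off of 0.7, and without Met + LPS replicate 1 it was -0.69. The gene spans chr9:21015985-21028817 (GRCm38, plus strand), and 11.7% of its exon bases are shared with the antisense gene Gm47079, which was listed at no more than 0.452 TPM. The strand setting of the counting is not given in the sources used here, so reads of the antisense gene cannot be told apart from those of Icam1.

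Vcam1 (chr3:116109949-116129688, minus strand) encodes VCAM-1, the immunoglobulin-type ligand of the integrin that holds the Itga4 chain. It was nearly absent from untreated cells, at 0.0741 and 0.0315 TPM or 5 and 2 reads. After LPS it reached 42.3 and 38.4 TPM, and in Met + LPS cells 19.4 and 20.2 TPM. Untreated and stimulated libraries were thus separated by far more than the spread within a group, and the Met + LPS libraries lay between them. From the summed reads, the LPS level was 756 times that of untreated cells, with a 95% interval of 367 to 1882 that covers counting error only. The log2 fold change was 5.30 ± 0.07 (SE, limma adjusted p = 1.4e-08), a difference in part fixed by the filter on low values. With metformin the level was 49.1% of that in LPS cells (log2 fold change -0.99 ± 0.07, limma adjusted p = 1.1e-04).

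Sele (chr1:164048234-164057677, plus strand) encodes E-selectin, which binds sialylated and fucosylated sugars on leukocytes. In untreated cells it was counted with 1 read in replicate 1, or 0.0452 TPM, and 0 reads in replicate 2, which allows up to 0.144 TPM, the value of 3 reads. It reached 12.9 and 12.6 TPM after LPS, from 285 and 268 reads. In Met + LPS cells it was at 4.54 and 3.61 TPM, from 100 and 93 reads. Sele was the least abundant of the 10 genes in both stimulated groups, while in untreated cells it could not be ranked against Vcam1. The order of the groups was that of Icam1 and Vcam1. The level in LPS cells was 548 times that in untreated cells by summed reads, although the interval of 97.9 to 21672 (counting error only) shows how little a single untreated read fixes this ratio. The log2 fold change was 3.75 ± 0.11 (SE, limma adjusted p = 4.4e-07), a difference in part fixed by the filter on low values. With metformin Sele was at 32.0% of the LPS level (log2 fold change -1.44 ± 0.11, limma adjusted p = 1.5e-04), and its LPS to Met + LPS ratio was 3.15 by reads with a counting interval of 2.67 to 3.73. Whether metformin lowered Sele by more than Vcam1 or Icam1 was not tested.

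Because E-selectin and VCAM-1 are best known from endothelium, the levels of 10 endothelial markers are given beside them. Cldn5 and Emcn were listed at 0 in all 6 libraries, and Cdh5, Pecam1 and Egfl7 stayed at or below 0.293, 0.297 and 0.741 TPM. Tek, Erg and Robo4 did not exceed 0.0561 TPM, whereas Kdr (21.0 to 33.7 TPM) and Vwf (32.0 to 68.3 TPM) were expressed. The summed level of the list was 73.1 and 76.1 TPM in untreated cells, 53.7 and 56.1 TPM after LPS, and 96.4 and 101 TPM in Met + LPS cells. Nearly all of this sum was Kdr and Vwf. Of 8 fibroblast and stromal markers 1 had a mean of at least 1 TPM, and their summed level was 0.846 and 0.851 TPM in untreated cells, 2.68 and 3.33 TPM after LPS, and 2.43 and 2.35 TPM in Met + LPS cells. Most of that sum after LPS was Pdgfrb, at 1.99 and 2.55 TPM. This small sum moved with LPS as Vcam1 did, and its part in the result was not tested. In bulk RNA, a change in the number of cells that express a gene cannot be told apart from a change in its RNA per cell.

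Itgb2 (chr10:77530252-77565708, plus strand) encodes the β chain shared by the leukocyte integrins and was the most abundant of the 10 genes in untreated cells. It was listed at 1137 and 1176 TPM in untreated cells, at 879.9 and 851 TPM after LPS, and at 838 and 847 TPM in Met + LPS cells. The untreated libraries lay above the other 4. Itgb2 fell with LPS on the TPM scale (log2 fold change -0.42 ± 0.03 (SE), limma adjusted p = 3.3e-05), but this was 0.06 above the median of all genes, and with median-ratio scaling the value was 0.11 with an adjusted p of 0.020. Metformin made no detectable difference, at -0.04 with a 95% interval of -0.12 to 0.04 (limma adjusted p = 0.385).

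Itgam encodes αM (CD11b), a chain used as a surface marker of myeloid cells that pairs with the Itgb2 product to form a complement receptor. Untreated cells held 63.7 and 61.7 TPM of it, LPS cells 52.3 and 55.3 TPM, and Met + LPS cells 45.1 and 41.3 TPM. The 3 groups did not overlap. Its log2 fold change with LPS was -0.22 ± 0.06 (SE, limma adjusted p = 0.0088) as deposited, which was 0.26 above the median of all genes, and 0.30 with median-ratio scaling (adjusted p = 0.0030), so the LPS direction rests on the scaling. It also missed the adjusted p of 0.01 when any 1 of the 4 libraries compared was left out (adjusted p 0.016 to 0.064). With metformin it was lower than with LPS alone (log2 fold change -0.31 ± 0.06, limma adjusted p = 0.0040; -0.30 with median-ratio scaling). This call held without Met + LPS replicate 1 (adjusted p = 0.0060) and was lost without any of the other 3 libraries (0.013 to 0.028).

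The level of Itgam itself is uncertain. The gene lies at chr7:128062640-128118491 (GRCm38, plus strand), and the annotation places a second protein-coding gene, Gm49368, over it on the same strand, so that 68.7% of the 5024 exon bases of Itgam are shared. Gm49368 was listed at 0 reads in 5 libraries and 1 read in LPS replicate 1, so reads from the shared bases were not credited to Gm49368, and whether they were credited to Itgam is not given in the sources used here. If they were left out and only unshared bases counted, the level would be higher. Divided by the 1574 unshared bases, the Itgam reads came to 200 TPM without stimulation, 172 TPM after LPS and 138 TPM with metformin before LPS. This rescaling, chosen after the values were seen, is the same in every library and leaves the fold changes untouched.

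Itgal (chr7:127296260-127335138, plus strand) encodes αL (CD11a), which with the Itgb2 product forms the ICAM-1 receptor LFA-1. It was low in untreated cells, at 4.72 and 4.93 TPM, and stood at 27.2 and 25.2 TPM after LPS and at 32.4 and 34.8 TPM in Met + LPS cells. No 2 groups overlapped, and the Met + LPS libraries were the highest. Itgal rose 5.43-fold with LPS (log2 fold change 2.22 ± 0.06 (SE), limma adjusted p = 3.3e-07). It was a further 1.28-fold higher with metformin (log2 fold change 0.35 ± 0.06, limma adjusted p = 0.0048), which made it the one gene of the 10 that rose with LPS and was higher again with metformin. The metformin call was lost without any 1 of the 4 libraries compared (adjusted p 0.012 to 0.032), with the direction kept each time.

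Itgax (chr7:128129547-128150657, plus strand) encodes αX (CD11c), known as a marker of dendritic cells and of some macrophages, and starts 11056 bases after the end of Itgam on chromosome 7. The untreated libraries held 22.8 and 19.7 TPM of it, the LPS libraries 17.4 and 18.1 TPM, and the Met + LPS libraries 26.1 and 24.6 TPM. The Met + LPS libraries were again the highest. The LPS difference did not pass the test (log2 fold change -0.24 ± 0.08 (SE), limma adjusted p = 0.023) and was 0.24 above the median of all genes, or 0.26 with median-ratio scaling. Without untreated replicate 2 it did (-0.34, adjusted p = 0.0088). With metformin Itgax was 1.43-fold higher than with LPS alone (log2 fold change 0.49 ± 0.08, limma adjusted p = 0.0025). That call, too, was lost without any 1 of the 4 libraries (adjusted p 0.012 to 0.021).

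Markers of other cells that carry these chains are given beside them. Of 6 dendritic cell markers 1, Ccr7, had a mean of at least 1 TPM, and their summed level was 2.19 and 3.44 TPM in untreated cells, 3.48 and 3.45 TPM after LPS and 6.16 and 5.27 TPM in Met + LPS cells. Flt3, Clec9a and Siglech stayed at or below 0.107, 0.320 and 0.743 TPM. Zbtb46 stood at 0.108 and 0.164 TPM in untreated cells, 1.53 and 1.14 TPM after LPS, and 0.824 and 0.744 TPM in Met + LPS cells. Xcr1 stood at 0.0886 and 0.0313 TPM, then 0.561 and 0.831 TPM, then 1.13 and 1.17 TPM. Of 8 neutrophil markers 5 had a mean of at least 1 TPM, with sums of 29.99 and 32.8 TPM in untreated cells, 26.7 and 28.2 TPM after LPS, and 45.9 and 43.6 TPM in Met + LPS cells. Ly6g, which defines neutrophils, was listed at 0 in 5 libraries and at 0.140 TPM in Met + LPS replicate 1. Both sums were highest in Met + LPS cells, as Itgax and Itgal were, and their part in those results was not tested. The 6 T and NK cell markers summed to at most 0.429 TPM and the 5 B cell markers to 0.766 to 3.18 TPM. Of the 4 mast cell markers only Kit reached a mean of 1 TPM (7.92 to 24.2 TPM), and among the 6 erythroid and megakaryocyte markers only Pf4 did (25.5 to 42.3 TPM).

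The 3 α chains that share the Itgb2 partner shifted in proportion, which can be read within each library and does not depend on how libraries are scaled. In untreated cells Itgam made up 69.8% and 71.5% of their summed TPM, after LPS 54.0% and 56.1%, and in Met + LPS cells 43.5% and 41.0%. Itgal made up 5.18% and 5.71%, then 28.1% and 25.5%, then 31.2% and 34.6%. The Itgam share was thus lower, and the Itgal share higher, in each successive group, with no overlap between groups. Itgax held 23.9%, 18.2% and 24.8% on average. The ratio of Itgax to Itgam was 0.339 in untreated cells, 0.330 after LPS and 0.587 in Met + LPS cells, so it differed between the first 2 groups by less than the gap between the untreated libraries (0.359 and 0.319). With 2 libraries a group the smallest exact two-sided permutation p is 0.333, so these shares were not tested. Counted per unshared base, Itgam made up 88.5%, 79.6% and 70.0% of the sum in the 3 groups and Itgal 2.13%, 12.1% and 17.1%, in the same order.

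**Figure D3:**
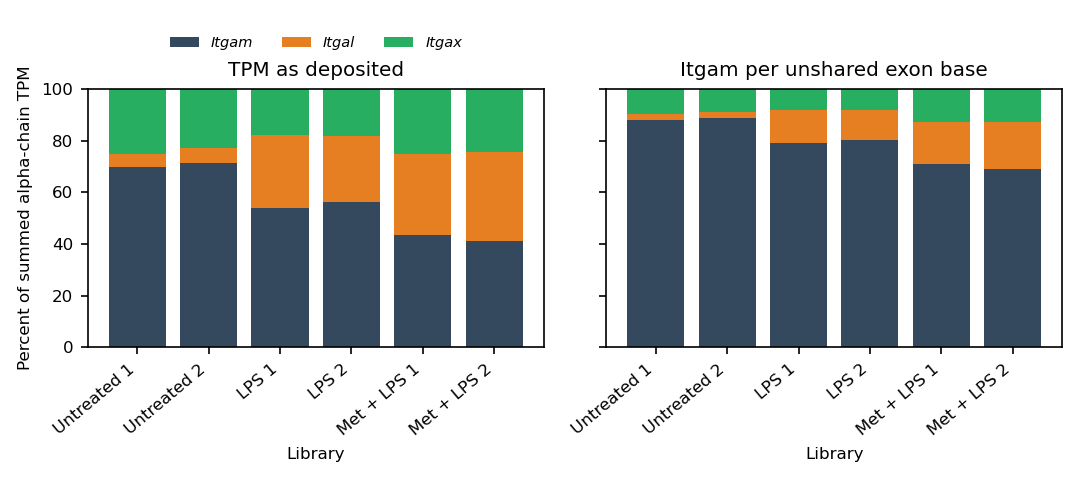
Share of Itgam, Itgal and Itgax in their summed TPM in each library, in percent, with TPM as deposited on the left and with Itgam counted per exon base not shared with Gm49368 on the right. In both panels the Itgam share is highest in the untreated libraries and lowest in the Met + LPS libraries, and the Itgal share takes the reverse order.

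Itgb2 exceeded the sum of these α chains by far. The ratio of Itgb2 to the summed α chains was 13.0 in untreated cells, 8.85 after LPS and 8.25 in Met + LPS cells, or 5.11, 4.01 and 4.28 with Itgam per unshared base. Per unshared base the libraries of the stimulated groups overlapped, at 4.16 and 3.87 after LPS and 4.14 and 4.43 in Met + LPS cells, so these groups could not be ordered. Untreated cells had the highest ratio either way. Itgad, the gene of the remaining α chain of this family, had at most 1 read in any library.

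Itga4 (chr2:79255426-79333123, plus strand) encodes the α chain of the VCAM-1 receptor VLA-4. It was listed at 37.1 and 36.4 TPM in untreated cells, at 163 and 163 TPM after LPS, and at 117 and 117 TPM in Met + LPS cells. The groups were far apart relative to the spread within them. Itga4 rose 4.44-fold with LPS (log2 fold change 2.12 ± 0.03 (SE), limma adjusted p = 2.1e-08). With metformin its level was 71.9% of that in LPS cells (log2 fold change -0.47 ± 0.03, limma adjusted p = 8.5e-05), which passed the adjusted p but not the fold-change cut-off of 0.7. Its exons share 8.04% of their bases with Cerkl on the other strand, listed at no more than 0.740 TPM.

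Itga5 (chr15:103344286-103366763, minus strand) encodes the α chain of the classical fibronectin receptor. Its libraries stood at 153 and 158 TPM in untreated cells, at 496 and 491 TPM after LPS, and at 466 and 447 TPM in Met + LPS cells. It rose 3.17-fold with LPS (log2 fold change 1.66 ± 0.03 (SE), limma adjusted p = 8.5e-08), short of the cut-off of 2 as deposited and past it, at 2.18, with median-ratio scaling. The metformin difference was -0.11, with a 95% interval of -0.20 to -0.03 and a limma adjusted p of 0.037, so it did not pass the test here. It did pass with voom, a count-based form of the same test run on recovered reads (-0.11, adjusted p = 0.0072). The ratio of Itga5 to Itga4 was 4.23 in untreated cells, 3.02 after LPS and 3.90 in Met + LPS cells.

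The partner that both chains share, Itgb1, is no member of the set but bears on this ratio. It was listed at 617 and 597 TPM in untreated cells, at 672 and 661 TPM after LPS, and at 801 and 773 TPM in Met + LPS cells. Its log2 fold change was 0.13 with LPS (limma adjusted p = 0.0086), or 0.66 with median-ratio scaling, and 0.24 with metformin (limma adjusted p = 0.0016). The α chains rose by far more than this β chain, so that the ratio of Itgb1 to summed Itga4 and Itga5 went from 3.15 in untreated cells to 1.01 after LPS and 1.37 in Met + LPS cells. Other partners of these chains are not counted in this ratio.

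Cd44 (chr2:102811141-102901665, minus strand) encodes the hyaluronan receptor, which also carries sugars that E-selectin binds. It was listed at 207 and 195 TPM in untreated cells, at 1319 and 1253 TPM after LPS, and at 1231 and 1179 TPM in Met + LPS cells. The stimulated libraries lay far above the untreated ones. Cd44 rose 6.40-fold with LPS (log2 fold change 2.67 ± 0.04 (SE), limma adjusted p = 3.0e-08). The metformin difference was -0.09 with a 95% interval of -0.20 to 0.01 (limma adjusted p = 0.133), so a difference beyond -0.20 lies outside the interval while a smaller one does not.

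These changes reordered the 10 genes by TPM, a unit per length that allows levels to be compared between genes. In untreated cells the order was Itgb2, Cd44, Itga5, Itgam, Icam1, Itga4, Itgax, Itgal, Vcam1 and Sele, and only the libraries of the last 2 overlapped. After LPS it was Icam1, Cd44, Itgb2, Itga5, Itga4, Itgam, Vcam1, Itgal, Itgax and Sele. In Met + LPS cells the first 6 places were the same, followed by Itgal, Itgax, Vcam1 and Sele. Vcam1, which stood above Itgal and Itgax after LPS, stood below both with metformin. Neighbours in the last 2 orders did not overlap in their libraries. The place of Itgam depends on the length counted. With every gene taken per unshared base, Itgam in untreated cells (200 TPM) overlapped Cd44 (201 TPM) and stood above Itga5 (156 TPM). After LPS it stayed below Itga4 (172 against 177 TPM), and in Met + LPS cells it stood above Itga4 (138 against 128 TPM).

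Against untreated cells, which serve as the control of both stimulated groups, Met + LPS cells passed both cut-offs (log2 fold change of at least 2) for 5 genes, all higher, where 5.35% of all genes passed and 3.18% did so as higher. Their log2 fold changes were 5.31 for Icam1, 4.31 for Vcam1, 2.31 for Sele, 2.58 for Cd44 and 2.57 for Itgal. The calls of Vcam1 and Sele are in part fixed by the filter on low values here too. Itga4, past the cut-off with LPS alone, was at 1.65 here and at 2.17 with median-ratio scaling, and Itga5 was at 1.55 and 2.09. Itgam and Itgb2 lay at -0.53 and -0.46 as deposited but at 0.00 (adjusted p = 0.980) and 0.08 (adjusted p = 0.049) with median-ratio scaling. By the adjusted p alone 9 of the 10 genes passed against untreated cells, as did 75.1% of all genes. With median-ratio scaling 8 passed, all of them higher, beside 33.4% of all genes as higher and 29.7% as lower.

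The rest of the adhesion machinery was followed in 7 lists of other genes, covering further integrin chains, integrin activation, immunoglobulin-type and junctional receptors, selectin ligands, hyaluronan metabolism, matrix ligands and sheddases. Of 119 listed symbols, which hold Cemip2 also under its earlier symbol Tmem2, 117 were in the table and 77 were tested. With LPS 12 of the 77 (15.6%) passed both cut-offs, 10 higher (13.0%) and 2 lower, beside 6.08% of all tested genes, 3.72% as higher and 2.37% as lower. The median log2 fold change of the 77 was -0.14. Of these 12 genes 5 stayed below 1 TPM in both libraries of one group, namely Itgb8, Tnfaip6, Vcan and Mmp14 in untreated cells and Fut7 after LPS. They passed the filter on low values only through the other libraries, so their LPS difference is in part fixed by that filter, which leaves 7 calls free of this limit. Over all 12755 tested genes, 181 of the 776 calls had a group below 1 TPM in the same way, which leaves 595. With median-ratio scaling the split was 14 higher and 0 lower, a shift also seen over all genes, of which 61.1% of calls were higher as deposited and 83.7% with that scaling. With metformin 9 of the 77 (11.7%) passed both cut-offs, which is near the 8.28% of all genes. Of these 2 were higher (4.19% among all genes) and 7 lower (9.09%, beside 4.09% among all genes), and the median of the 77 was -0.13. By the adjusted p alone, 31 (40.3%) rose and 35 (45.5%) fell with LPS, beside 16.2% and 60.1% of all genes. With metformin 6 (7.79%) were higher and 27 (35.1%) lower by that rule, beside 14.5% and 18% of all genes. Most of these genes thus changed by less than the cut-offs, and the large LPS changes were those of a few genes.

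Among the other integrin chains, 8 of 20 were tested. Itgav, whose product binds vitronectin and other matrix proteins, rose from 59.7 to 393 TPM with LPS (log2 fold change 2.70). Itgb8, one of its partners, rose from 0.171 to 13.6 TPM (3.64). Itgb3, another partner of Itgav, was 1.37 higher on the log2 scale with metformin than with LPS alone (10.6 to 29.1 TPM, limma adjusted p = 6.7e-05). It was the one integrin chain past the metformin cut-offs, and its LPS value was -1.21, or -0.71 with median-ratio scaling.

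Of 31 genes of integrin activation and signalling 25 were tested, and 1 passed both cut-offs with LPS. This was Src, a tyrosine kinase at adhesion sites, which rose from 9.50 to 185 TPM (log2 fold change 4.15). Src was lower with metformin, at 103 TPM (-0.85), as were the related kinase Fgr (5.81 to 2.19 TPM, -1.09) and the endocytic adaptor Dab2 (267 to 109 TPM, -1.28). Among the immunoglobulin-type and junctional receptors, with 13 of 21 tested, Pvr (3.24) and Nectin2 (2.89), both nectin-type receptors of cell contacts, rose with LPS. Nectin2 was lower with metformin at -0.70, or -0.69 and so short of the cut-off with median-ratio scaling.

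Among 9 tested selectins, selectin ligands and their glycosyltransferases, Fut7, whose enzyme adds the fucose that E-selectin recognises, was lower with LPS (4.75 to 0.430 TPM, log2 fold change -2.01, or -1.67 with median-ratio scaling). In the hyaluronan list 8 of 15 symbols were tested. Cemip2, known as a cell-surface hyaluronidase, rose from 10.1 to 120 TPM (3.45) and was at 48.4 TPM with metformin (-1.29). Tnfaip6, a secreted hyaluronan-binding protein, rose from 0.118 to 3.70 TPM (2.06). The lysosomal hyaluronidase gene Hyal1 ran the other way, from 20.6 to 3.64 TPM with LPS (-2.22, or -1.74 with median-ratio scaling) and to 7.25 TPM with metformin (0.83). The hyaluronidase genes Cemip2 and Hyal1 thus went in opposite directions in both comparisons.

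Of the matrix ligands, with 6 of 11 tested, Vcan, a large proteoglycan that binds hyaluronan, rose with LPS (log2 fold change 3.21). All 8 sheddase genes were tested. Mmp14, a membrane protease that can cut CD44, rose from 0.396 to 46.8 TPM (5.10) and was at 13.4 TPM with metformin (-1.73). Rhbdf2, a partner that the sheddase ADAM17 needs to mature, rose from 39.9 to 198 TPM (2.29), and its relative Rhbdf1 was lower with metformin (3.71 to 1.77 TPM, -0.77). All values named from these lists had a limma adjusted p under 0.01.

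**Figure D4:**
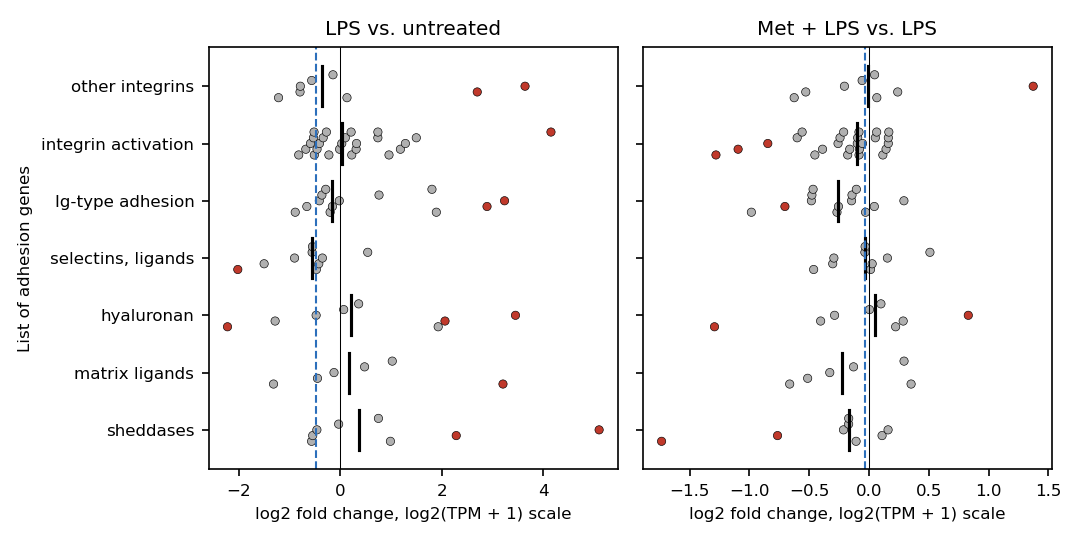
Log2 fold changes on the log2(TPM + 1) scale of the 77 tested genes in 7 adhesion lists, LPS vs. untreated on the left and Met + LPS vs. LPS on the right; each point is a gene, red points passed both cut-offs, black bars are list medians and the dashed blue line is the median of all tested genes. The list medians run from -0.54 to 0.36 on the left and from -0.26 to 0.05 on the right, and 12 genes on the left and 9 on the right are red.

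For the 6 genes past both cut-offs with LPS, the genes nearest in the plane of the 2 log2 fold changes (LPS vs. untreated and Met + LPS vs. LPS) were found among all tested genes, over the same 6 libraries. Nearest to Icam1 were Gbp2 (distance 0.23), an interferon-inducible GTPase, Mmp13 (0.25), a collagenase, and Tmem200b (0.34). Nearest to Vcam1 were Cish (0.13) and Socs1 (0.20), both inhibitors of cytokine signalling, and the chemokine gene Ccl17 (0.33). Nearest to Sele were Oaf (0.04), Fgl2 (0.15) and the prostaglandin E synthase gene Ptges (0.16). Icam1 and Vcam1 had sparser surroundings in this plane than Itgal and Itga4.

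Nearest to Cd44 were the NF-kB subunit gene Rel (0.10), H2-Q6 (0.11) and Itgav (0.12), the last of which is itself an integrin chain. Itga4 lay nearest to Ptprj (0.03), Fam208b (0.06) and E2f8 (0.07), and Itgal to AW011738 (0.01), the pentraxin gene Ptx3 (0.05) and Cldn23 (0.06). All 18 shared the direction of their member in both comparisons, which the measure of likeness favours.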

How the data were processed

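Poly-A RNA of mouse BMDMs was sequenced as single-end reads in 6 libraries. Per the labels and methods, the authors aligned reads to GRCm38 (Ensembl release 94) with STAR 2.6.1d and counted them with featureCounts of Subread 1.6.3; SAMtools 1.9 was also used. The deposited values are TPM per gene, and how the authors went from counts to TPM, the strand setting and the handling of overlapping genes are not given in the sources used here. Reads were recovered as TPM times the GENCODE M21 exon length times a library constant.

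Values were analysed as log2(TPM + 1) after a filter that kept genes at 1 TPM or more in 2 or more libraries, with limma 3.58.1 (eBayes with a trend) in R 4.3.3, all libraries in 1 fit without covariates and 3 residual degrees of freedom. Benjamini-Hochberg adjustment was over all 12755 tested genes. DESeq2, which the authors used, was not run; voom on recovered reads is the count-based alternative. Shares, ratios and counting intervals were computed in Python 3.11.15.

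The members and all lists were chosen with earlier results of these data known, and the wider lists carry no test of their own. All members were named. From each adhesion list, up to 4 genes per comparison past both cut-offs were named by size of change, together with the 3 nearest genes of each member past both cut-offs. Markers were named where they were the highest of their list, at 0, or defining for the cell type, the last chosen after their values were seen. The endothelial and dendritic cell markers were named in full.

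Alternatives were another pseudocount (0.1), no filter, a minimum of 5 TPM, median-ratio scaling, only the compared groups, a replicate block, no variance trend, voom on recovered reads, an adjusted p under 0.05, a log2 cut-off of 1 and fits without 1 library at a time. The 2 libraries of each group differed by more than counting noise (chi-square per degree of freedom of 1.88 to 3.52) and were kept as separate replicates.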

Additional observations from a re-analysis of the deposited data

How the results depend on the processing

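The 6, 3 and 5 members past both cut-offs in LPS vs. untreated, Met + LPS vs. LPS and Met + LPS vs. untreated remained the same genes under pseudocount 0.1, no filter, a minimum of 5 TPM, fits of the compared groups only, no variance trend, voom and an adjusted p under 0.05. A log2 cut-off of 1 left 1 member (Sele) for Met + LPS vs. LPS, and gave 23 adhesion genes in place of 12 for LPS vs. untreated and 5 in place of 9 for Met + LPS vs. LPS; lower and higher cut-offs do this by construction. Members past the adjusted p alone in Met + LPS vs. LPS fell from 7 to 4 without the filter, and to 4 to 5 when 1 of the 4 compared libraries was left out, where Itgal and Itgax were lost each time and Itgam in 3 of 4 cases; they were 5 with the compared groups only and 5 with no variance trend, where Itgal and Itgam were lost, and 8 with voom, where Itga5 was gained (adjusted p = 0.0072). The cause was not tested. In LPS vs. untreated, Itgam lost its call by the adjusted p without the filter (0.024) and with no variance trend (0.025), and voom gained Itgax (0.0063). Leaving out 1 library gave 6 to 6, 2 to 3 and 5 to 5 members past both cut-offs, 8 to 9 and 9 to 10 past the adjusted p alone against untreated cells, and 11 to 12 and 8 to 11 adhesion genes; a group of 1 library was assumed to vary like the others. Median-ratio scaling turned Itgam (0.30), Itgax (0.26) and Itgb2 (0.11) upward in LPS vs. untreated, and Itgam (0.0017) and Itgb2 (0.084) in Met + LPS vs. untreated; by construction it removes most of the downward shift of the median gene. Of the recomputed log2 fold changes of members, 5 reversed; by both cut-offs together, 406 kept their side, 6 gained the call and 3 lost it, and by the adjusted p alone, 351 kept their side, 9 gained the call and 25 lost it, these being Itgam, Itgal and Itgax. With the replicate number as a block, members past both cut-offs stayed at 6, 3 and 5 and adhesion genes at 12 and 9, and Itgam lost its LPS call by the adjusted p alone (8 in place of 9); the labels do not say that the numbers pair samples, and deviations of same-numbered libraries correlated at -0.004 to 0.028. For Sele and Vcam1, the 1 and 7 reads of the untreated group limit the LPS ratios.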
